A study of Rattus norvegicus with 16 samples.

Results

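The cytosolic ribosomal protein genes code for the protein subunits of the ribosome that translates messenger RNA in the cytoplasm. They were chosen by name from the array's annotation: a symbol beginning with Rpl or Rps followed by a number (with an optional a, x or y and a further number), or Rplp0, Rplp1, Rplp2 or Rpsa, with pseudogene symbols left out and only probe sets that carry that single symbol used. This gave 46 genes of 14562 measured, 33 of the large and 13 of the small subunit, on 74 probe sets. Where a gene had several probe sets (14 genes), the brightest over the 16 arrays stood for it. A further 25 ribosomal protein genes lay only on probe sets that also carry another symbol and are described beside the 46 without being counted among them.

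The arrays measured isolated corticotropes, the pituitary cells that make adrenocorticotropic hormone (ACTH), of 21-day-old Wistar rats. There were 4 arrays without ligand (control) and 4 each of cells exposed for 24 h to corticotropin-releasing hormone (CRH), to interleukin-6 (IL-6) or to eNampt, the extracellular form of nicotinamide phosphoribosyltransferase. The comparisons ask which transcripts each ligand changed. All 4 groups shared the same handling: collagenase dissociation and primary culture, capture on biotin-binding beads with an antibody to the CRH receptor CRHR1 (the series' design text names an antibody to CRH instead), DMEM/F12 medium with FGF at 0.05 µg/l and 10% fetal bovine serum, Trizol extraction, and target made from 5 ng of total RNA. The control titles give no time, and ligand doses, the sex of the animals and how many were pooled were not stated in the labels. Whether arrays of 1 group stem from different cultures or animals is not stated either, so a p-value reflects the spread among these samples, which could be technical.

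In mammals, ribosomal proteins are needed in nearly equal numbers, since each ribosome carries 1 copy of most of them, and their messengers are among the most abundant of a dividing or secreting cell. Most of these messengers begin with a C followed by a run of pyrimidines, the 5′ terminal oligopyrimidine (TOP) tract, through which mTOR signalling and the protein Larp1 control their translation. Because that control acts on translation, a change in ribosomal protein synthesis need not be seen at the level of the messenger, which is what an array measures.

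The start regions are printed to show this shared feature beside the expression values. RefSeq promoter windows (rat assembly GRCr8) were found for 40 of the 46 genes. In each line below, 15 bases before the annotated start are followed by 15 from the start on, read 5′ to 3′ on the strand of the gene, and capitals mark a C at the start together with the unbroken run of C and T after it. The first 5 genes hold such a tract and the last 3 do not.
Rpl37a (chr9:81748076-81748105, plus strand): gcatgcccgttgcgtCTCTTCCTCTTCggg
Rpl19 (chr10:83519049-83519078, plus strand): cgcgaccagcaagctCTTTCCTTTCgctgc
Rpl22 (chr5:168117946-168117975, plus strand): gtagtgcgcccccctCCCTTTCTgcctcct
Rpl35a (chr11:81235007-81235036, minus strand): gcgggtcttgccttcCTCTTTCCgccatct
Rpl39 (chrX:121195882-121195911, minus strand): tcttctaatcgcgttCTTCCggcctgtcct
Rpl7a (chr3:30637121-30637150, plus strand): ctctcctccagccgagcaagatggtgagtg
Rpl36 (chr9:1533765-1533794, plus strand): ctgtccggccgccatcggaaagctgcaggt
Rpl41 (chr7:1563483-1563512, minus strand): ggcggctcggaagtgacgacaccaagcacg

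A C at the annotated start followed by at least 4 bases that are each C or T, sought on the gene's own strand only, was present in 14 of the 40 genes (35%) and in 2.63% of 33469 rat promoters. Such a tract began within 15 bases of the start in 77.5% of the ribosomal protein genes and in 34.8% of all promoters. Annotated starts can lie a few bases from those used by a cell, so a missing tract says only that these letters are not at the annotated position. The tract is taken up again below, beside the expression differences.

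The deposited values are log2 expression levels per probe set, and a difference of 1 is a factor of 2. Of the 46 genes, 34 had a mean above 5 (the bright genes), 4 lay between 3 and 5 (Rpl10, Rplp0, Rps15 and Rps4y2) and 8 lay below 3 (Rpl13, Rpl15, Rpl26, Rpl27a, Rpl28, Rpl5, Rps6 and Rps9). The median over all 14562 genes was 2.25, so the 8 dim probe sets, with a median of 1.78, were measured in the range of most genes on the array and the 34 bright ones, with a median of 8.67, far above it. Another 1865 genes had means above 5 and serve as the set of like brightness. With 4 arrays per group, the SE of a difference between 2 groups had a median of 0.334 over the 46 genes (0.281 over all genes) and ran from 0.148 to 0.719.

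Control arrays 3 and 4 stood apart from the rest. The level below which 90% of genes lay was 4.73 on control array 3 and 4.60 on control array 4, against 5.78 and 5.89 on the other control arrays and 5.55 to 5.92 on the 12 ligand arrays. The main values of each comparison with control are therefore given with and without them. Of the corticotrope markers, Pomc, the ACTH precursor, was bright in all groups (group means from 7.73 to 8.45), whereas Tbx19, the transcription factor that defines the lineage, was at 1.54, at the 20.7th percentile of all genes, and Neurod1 was at 1.35. Prl, the prolactin gene of lactotropes, had group means from 10.6 to 10.9, Gh1 of somatotropes from 5.12 to 5.82 and Col1a1 of fibroblasts from 6.59 to 7.02. The labelled cell type thus had its hormone precursor without its defining transcription factor above the level of most genes, and transcripts of other pituitary cells were present in every group. In such bulk samples, fewer cells of a type and less RNA per cell cannot be told apart.

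**Figure D1:**
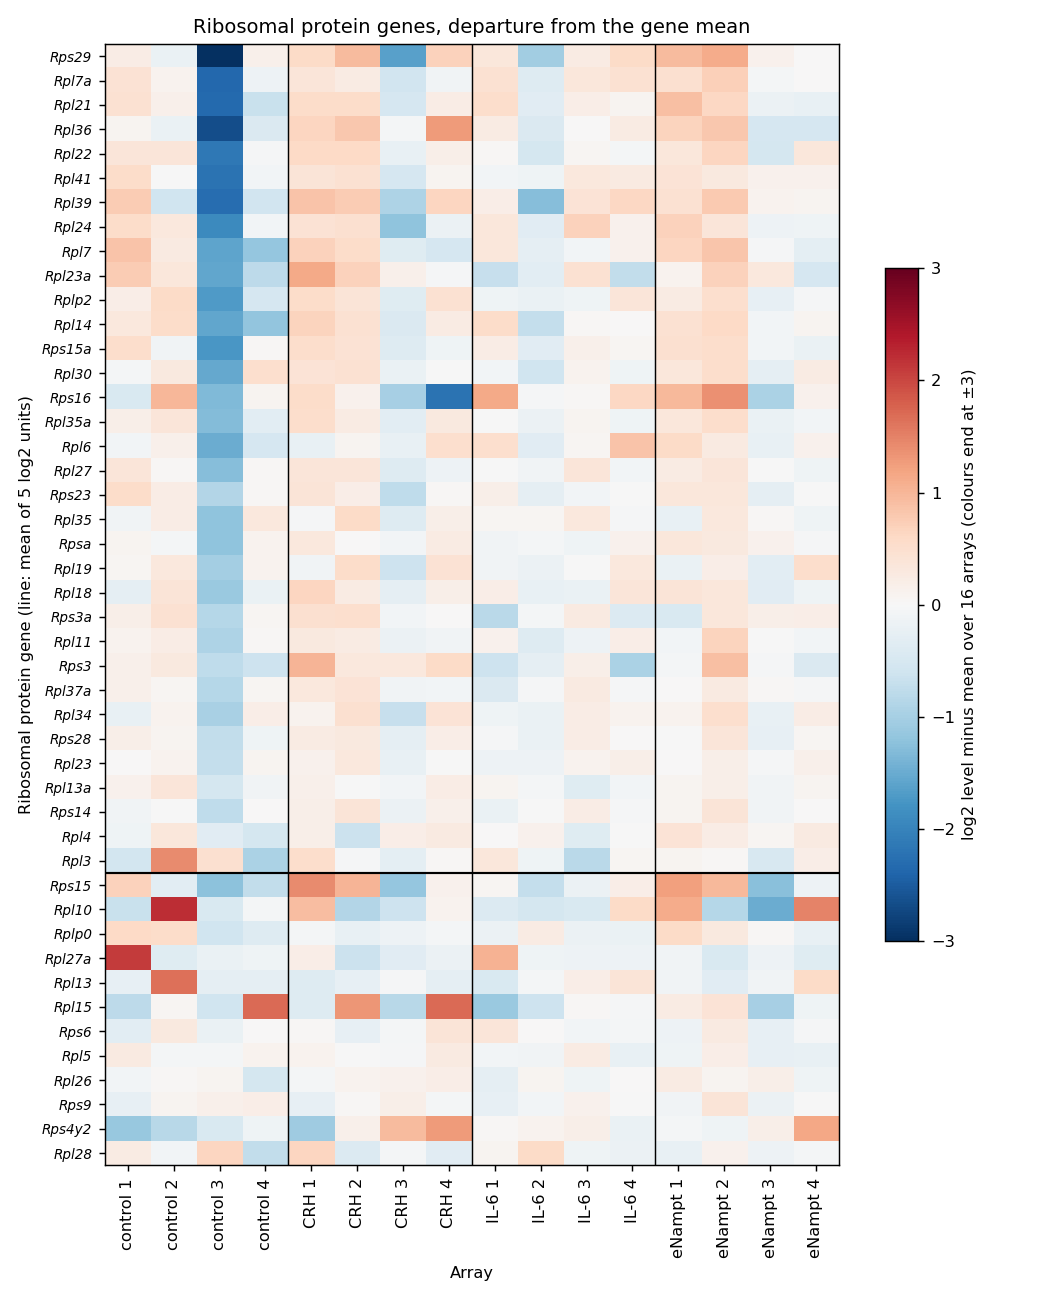
Each row is a ribosomal protein gene and each column an array; colour gives the log2 level minus the gene's mean over the 16 arrays, and a line parts the 34 genes with means above 5 from the other 12. Control array 3 is the lowest array in 30 of the 34 bright genes, while most genes on control array 4 and the ligand arrays lie nearer their means.

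No ribosomal protein gene differed between any ligand and control at an adjusted p under 0.05 (limma over all 14562 genes), and the main pattern in this gene family was a low control array 3. The median of the 34 bright genes was 8.83, 8.99, 7.43 and 8.49 on control arrays 1 to 4. It was 9.08, 9.03, 8.35 and 8.80 on the CRH arrays, 8.83, 8.37, 8.87 and 8.69 on the IL-6 arrays, and 8.98, 9.22, 8.64 and 8.78 on the eNampt arrays. Control array 3 lay below all others, control array 4 within the range of the ligand arrays, and the 4 groups overlapped. Array 3 was also the lowest within CRH and within eNampt, and array 2 the lowest within IL-6. Control arrays averaged 8.44 ± 0.702, CRH arrays 8.82 ± 0.332, IL-6 arrays 8.69 ± 0.228 and eNampt arrays 8.91 ± 0.252 (SD, n = 4 each).

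The 2 control arrays differed in where they put the ribosomal protein genes. On control array 3 the bright genes lay a median of -1.50 from the mean of control arrays 1 and 2, and the 1865 other bright genes -1.02. On control array 4 the values were -0.35 and -1.06. Measured against the array's own 90th percentile, the median of the bright ribosomal protein genes was 3.06, 3.10, 2.70 and 3.89 log2 units higher on control arrays 1 to 4, against 2.78 to 3.34 on the ligand arrays, so control array 4 was the highest of all 16 on this relative scale. The 25 genes on shared probe sets gave medians of -1.27 and -0.34 on the same arrays.

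**Figure D2:**
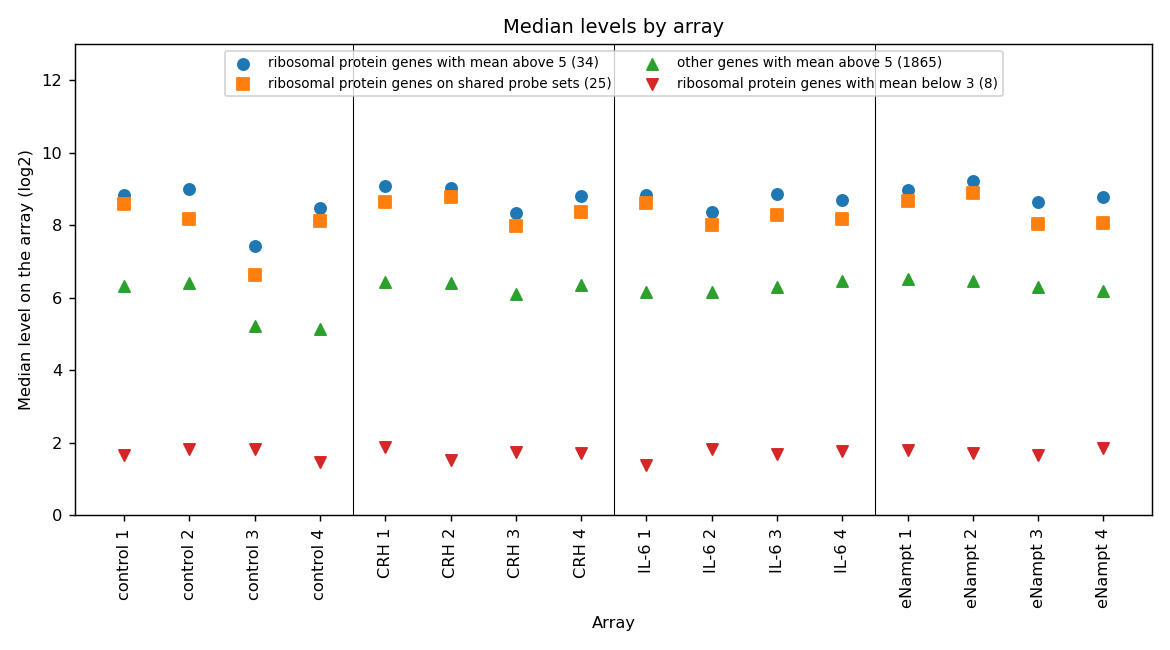
Points give the median log2 level on each of the 16 arrays for the bright and the dim ribosomal protein genes, the 25 on shared probe sets and the 1865 other genes with means above 5. On control array 4 the other bright genes fall to 5.15 while the bright ribosomal protein genes stay at 8.49, and on control array 3 both sets are low, at 5.23 and 7.43.

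By gene, 33 of the 34 bright genes were lower on control array 3 than the mean of control arrays 1 and 2, 25 of them by more than 1, and 27 were lower on control array 4, 4 of them by more than 1. Rps29, a small zinc-binding protein of the small subunit, had the largest departure on array 3 (-3.06) and was at 0.13 on array 4. Rpl7a and Rpl21, proteins of the large subunit, were each at -2.63 on array 3. At the other end were Rps14, of the platform of the small subunit, at -0.71, Rpl4, whose long loop lines the exit tunnel, at -0.44, and Rpl3, next to the peptidyl transferase centre, at 0.04. On array 4 the lowest were Rpl7 (-1.73) and Rpl14 (-1.62). The order of the genes therefore differed between the 2 arrays, with Rps29 below this mean on array 3 alone and Rpl3 (-1.38) on array 4 alone. For Rpl3 the mean was raised by control array 2 (9.12), and control array 1 (7.14) lay near array 4 (6.75).

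**Figure D3:**
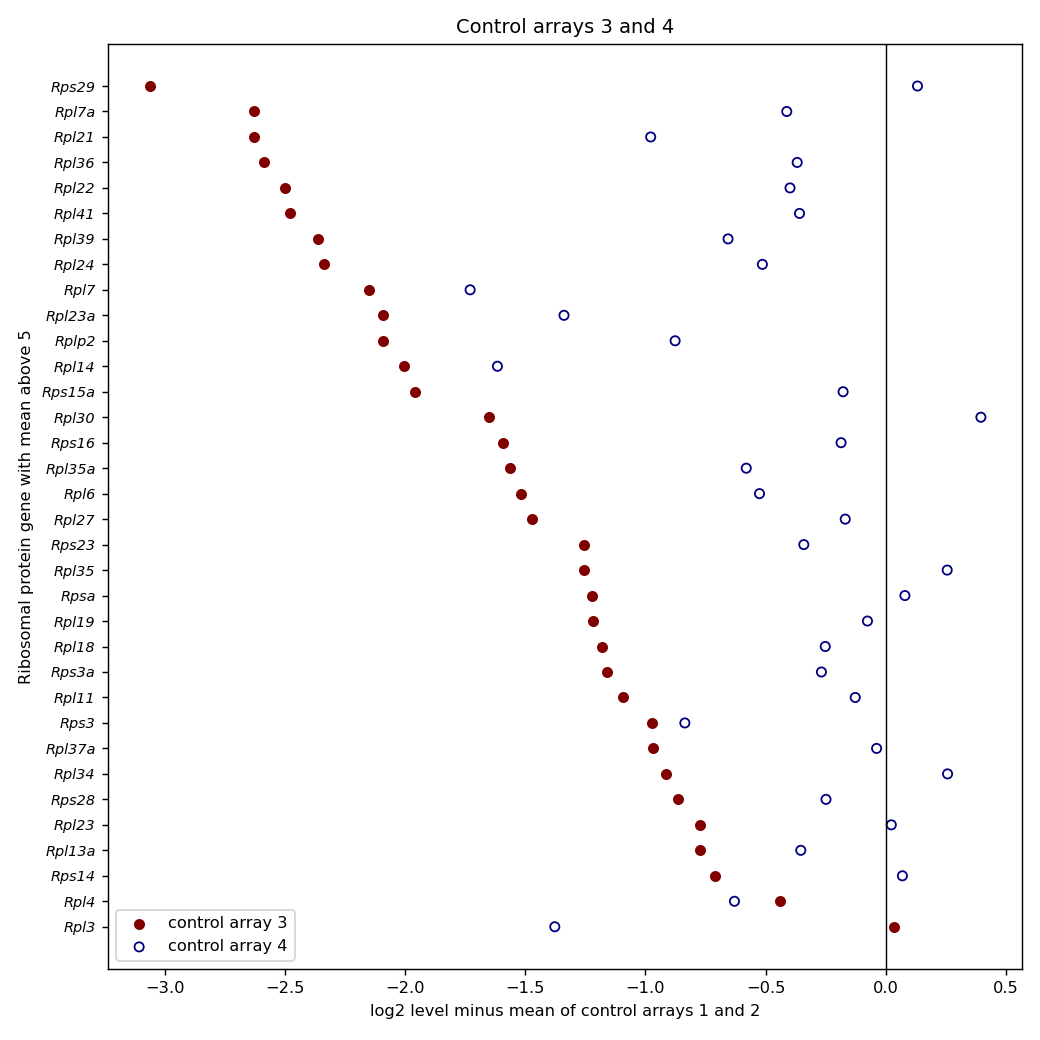
For each bright ribosomal protein gene, points show the log2 level on control array 3 (filled) and control array 4 (open) minus the mean of control arrays 1 and 2, ordered by array 3. Array 3 spans -3.06 for Rps29 to 0.04 for Rpl3, and array 4 lies nearer 0 for most genes.

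Some of the cell type markers also differed between these arrays. The mean of the 3 measured corticotrope markers of 6 listed was 3.32 on control array 3, the lowest of all arrays, and 3.87 on control array 4, within the 3.54 to 3.88 of the ligand arrays. Gh1 was at 2.85 on control array 3, against 4.34 to 6.35 on the ligand arrays. The mean of the 3 fibroblast markers (Col1a1, Dcn and Pdgfrb) was 5.47 on control array 3 and 3.74 on control array 4, and ran from 4.20 to 6.22 on the ligand arrays. The mean of the lactotrope markers Prl and Angpt1 was 7.21 and 6.70 on control arrays 3 and 4, within the 6.44 to 8.64 of the ligand arrays. Melanotrope, thyrotrope, gonadotrope and leukocyte means on these 2 arrays also lay within their ligand ranges. Below them lay the endothelial mean (1.21 and 1.43, against 1.45 to 1.94) and, on array 3, the folliculostellate mean (2.71, against 2.76 to 3.36). Hba-a1, the globin gene of erythroid cells, was at or below 1.19 everywhere. The part of these markers in the ribosomal protein values was not tested.

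Rps29 shows how much of a difference can come from a low array. Its levels were 8.22, 7.79, 4.94 and 8.13 on the control arrays, 8.56, 8.95, 6.36 and 8.68 after CRH, 8.33, 6.96, 8.24 and 8.56 with IL-6, and 8.94, 9.09, 8.13 and 8.01 with eNampt. The lowest were control array 3 and CRH array 3, and every ligand group overlapped with control. The difference of eNampt from control was 1.27 ± 0.709 (SE; limma, adjusted p = 0.693), and 0.54 against control arrays 1 and 2 alone. Its 3 probe sets all lay higher after each ligand than in control, with differences from 1.27 to 1.71 for eNampt.

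Rpl39, a very short protein of the exit tunnel, was measured by 6 probe sets, 5 of them with distinct values. The levels of the one used were 8.69, 7.33, 5.65 and 7.35 in control, 8.78, 8.69, 7.00 and 8.57 after CRH, 8.12, 6.65, 8.34 and 8.55 with IL-6, and 8.39, 8.71, 8.04 and 8.02 with eNampt. The eNampt arrays were the most even, and control array 1 was close to the highest ligand arrays, so the groups overlapped. The difference was 1.01 for CRH (limma, adjusted p = 0.813) and 1.04 for eNampt (0.693), and 0.25 and 0.28 without control arrays 3 and 4. All 5 distinct probe sets were lower on control array 3, at -2.80 to -2.36 from the mean of control arrays 1 and 2.

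After CRH, 37 of the 46 genes had a positive difference from control, with a median of 0.29, against 65.8% and 0.10 over all 14562 genes. None passed the test, nor did any gene on the array (0%). Rpl36, Rps3 and Rps4y2 (3 genes, all higher) had an unadjusted p under 0.05, beside 5.56% of all genes higher and 0.762% lower. Among bright genes 31 of 34 were higher (median 0.38), and of the 1865 other bright genes 86.1% were (median 0.47). Against control arrays 1 and 2 alone, 18 of the 46 were higher and the median was -0.08, beside 53.0% and 0.02 over all genes. The other bright genes also fell there, to 44.5% higher and a median of -0.06.

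Rps3 sits where messenger RNA enters the small subunit and also takes part in DNA repair. Its levels were 8.65, 8.79, 7.75 and 7.88 in control, 9.52, 8.81, 8.81 and 9.08 after CRH, 7.88, 8.22, 8.68 and 7.54 with IL-6, and 8.44, 9.40, 8.47 and 8.05 with eNampt. Every CRH array exceeded every control array, although CRH arrays 2 and 3 exceeded control array 2 by little, and it was the single member without overlap, beside 2.05% of all genes higher without overlap and 0.453% lower. The difference was 0.79 ± 0.330 (SE; limma, adjusted p = 0.768) and 0.34 against control arrays 1 and 2.

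Rpl36, of the large subunit, was at 5.90, 5.63, 3.18 and 5.40 in control and at 6.47, 6.63, 5.76 and 7.12 after CRH. CRH array 3 lay below control array 1, and the other 3 CRH arrays above all controls. The difference was 1.47 ± 0.521 (SE; limma, adjusted p = 0.727), a fold of 2.77, and 0.73 without control arrays 3 and 4. Rps4y2, a paralog of Rps4x, was at 1.94, 2.25, 2.61 and 2.96 in control and 2.02, 3.22, 4.02 and 4.36 after CRH; the difference of 0.96 became 1.31 without control arrays 3 and 4, which were its 2 highest controls. Rps14 (0.36), Rpl39 (1.01) and Rpl23a (0.79), the last at the rim of the exit tunnel, had the next largest moderated t, and Rpl23a was at -0.06 without the 2 arrays.

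On the lower side after CRH were Rpl27a (-0.59), Rpl13 (-0.45), Rps16 (-0.45), Rpl10 (-0.38), Rplp0 (-0.16) and Rps9 (-0.07), none with an adjusted p under 0.837. Of these, Rpl27a, Rpl13 and Rps9 were dim. Rpl27a was at 4.30 on control array 1 and between 1.84 and 2.08 on the other 3. Rpl13 was at 3.06 on control array 2 and between 1.12 and 1.15 on the others. Each of these differences thus rested on a single high control array, a different one for each gene. Rps16, of the small subunit, was at 6.12, 5.71, 4.58 and 3.37 after CRH, and its 2 probe sets differed in sign (-0.45 and 2.03), so its direction depended on the probe set.

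After IL-6, 33 of the 46 genes were higher than in control (median 0.18, against 63.2% and 0.09 over all genes). None passed the test, beside 0.00687% of all genes. Rpl6 alone had an unadjusted p under 0.05, on the higher side, where 4.42% of all genes lay, against 1.11% on the lower. None was free of overlap with control, beside 2.41% of all genes higher and 0.755% lower. Of the bright genes 28 of 34 were higher (median 0.23), against 90.3% of the other bright genes (median 0.46). Without control arrays 3 and 4 the median of the 46 was -0.17 with 11 genes higher, and without control array 3 alone it was -0.07. Against control arrays 1 and 2, 48.0% of all genes were higher (median -0.01). The other bright genes also fell there, to 41.6% higher and a median of -0.09. The order of the ligands was not tested.

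Rpl6, of the large subunit, was at 7.21, 7.44, 5.81 and 6.80 in control and at 7.81, 6.97, 7.35 and 8.14 after IL-6. The groups overlapped, and the difference was 0.75 ± 0.338 (SE; limma, adjusted p = 0.860), or 0.24 without control arrays 3 and 4. Rpl36 (0.82), Rps4y2 (0.67), Rpl7a (0.71), Rpl21 (0.72) and Rpl41 (0.54) followed. Rpl36 was at 0.08 and Rps4y2 at 1.01 without control arrays 3 and 4, and Rpl7a (-0.05), Rpl21 (-0.18) and Rpl41 (-0.17) had the opposite sign. On the lower side were Rpl15 (-0.53), Rpl10 (-0.47), Rpl3 (-0.24), Rps3a (-0.22), Rpl5 (-0.10) and Rps9 (-0.10).

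After eNampt, 38 of the 46 genes were higher than in control, with a median of 0.34, against 58.3% and 0.06 over all genes. None passed the test, beside 0.0137% of all genes, and Rps4y2 alone had an unadjusted p under 0.05, beside 6.17% of genes on the higher side and 1.38% on the lower. None was free of overlap with control, beside 2.81% of all genes higher and 1.33% lower. Of the bright genes 33 of 34 were higher (median 0.42), against 92.7% of the other bright genes (median 0.55). Without control arrays 3 and 4 the median of the 46 was -0.04 with 18 genes higher, beside -0.03 and 44.6% over all genes. The other bright genes also fell there, to 49.1% higher and a median of -0.01.

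Rps4y2 was at 3.01, 2.94, 3.25 and 4.25 after eNampt, and its difference from control was 0.92 ± 0.428 (SE; limma, adjusted p = 0.655), or 1.27 against control arrays 1 and 2. Rpsa, the laminin receptor of the small subunit head, was at 9.20, 9.07, 7.91 and 9.21 in control and at 9.46, 9.42, 9.26 and 9.09 after eNampt. Control array 3 alone was low, and the difference of 0.46 ± 0.241 (adjusted p = 0.684) was 0.17 without control arrays 3 and 4. Its second probe set was at -0.76, so the sign of Rpsa depended on the probe set. Rpl6 (0.67), Rpl4 (0.41), Rps29 (1.27) and Rpl39 (1.04) were the other genes with the largest moderated t, at 0.16, 0.14, 0.54 and 0.28 without the 2 arrays. Rpl27a (-0.63), Rpl15 (-0.21), Rpl13 (-0.21), Rpl5 (-0.16), Rpl3 (-0.14) and Rpl28 (-0.09) were on the lower side, with Rpl15 at 0.24 and the other 5 lower still without the 2 arrays. For 3 of them the remaining controls hold a single high value: Rpl27a (4.30 on control array 1), Rpl13 (3.06) and Rpl3 (9.12), both on control array 2. With 1 array left out at a time, Rpl13 reached 0.27 and Rpl3 0.30.

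In the F test over the 3 ligands no ribosomal protein gene passed (smallest adjusted p = 0.936), beside 0.0206% of all genes. The 3 comparisons share their control arrays, so control array 3 enters each of them. The 25 genes on shared probe sets had medians of 0.40, 0.32 and 0.45 for CRH, IL-6 and eNampt against all 4 controls, and of -0.04, -0.14 and -0.02 against control arrays 1 and 2.

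**Figure D4:**
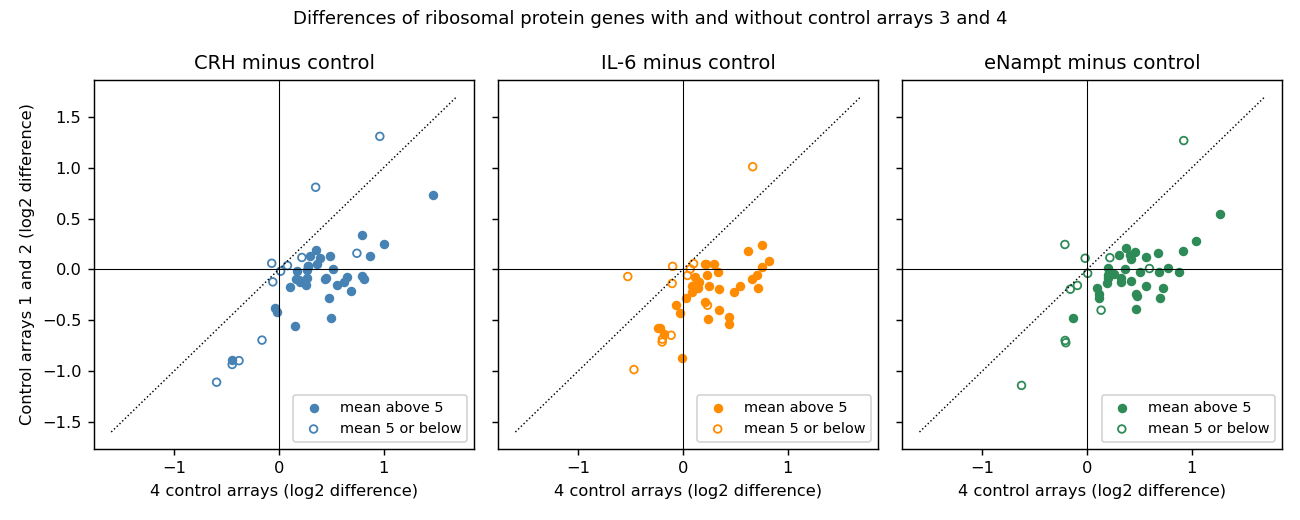
Each point is 1 of the 46 genes; the horizontal axis is the log2 difference of ligand from all 4 control arrays, the vertical axis the difference from control arrays 1 and 2, and the dotted line marks equality. All bright genes lie below the line, and their median moves from 0.38 to -0.09 for CRH, from 0.23 to -0.18 for IL-6 and from 0.42 to -0.04 for eNampt. A gene's offset from the line is set by the control arrays alone and is the same for each ligand.

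The differences between ligands do not use the control arrays. Their SEs and p-values do, because the spread was estimated over all groups together, control included. No ribosomal protein gene passed the test in any of the 3 pairs, beside 0.0137% of all genes for eNampt against CRH, 0.0137% for eNampt against IL-6 and 0% for CRH against IL-6. The medians of the 46 genes were 0.01, 0.15 and 0.11, against -0.05, -0.01 and 0.03 over all genes. In the first-named group 23, 37 and 36 of the 46 were higher, as were 42.9%, 47.5% and 54.9% of all genes. Of the 34 bright genes 19, 30 and 29 were higher, with medians of 0.03, 0.15 and 0.12. Of the other bright genes 57.2%, 60.8% and 53.1% were, with medians of 0.07, 0.09 and 0.03. Without IL-6 array 2, the lowest IL-6 array, the medians of the 46 were 0.07 for eNampt against IL-6 and 0.03 for CRH against IL-6. There 32 and 29 of the 46 were higher. Neither eNampt comparison had a member with an unadjusted p under 0.05, beside 2.56% of all genes higher and 2.37% lower than CRH, and 1.74% higher and 1.62% lower than IL-6. Nor had either a member without overlap, beside 1.22% higher and 1.74% lower than CRH and 1.28% higher and 1.53% lower than IL-6.

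Rps3 was higher after CRH than after IL-6 without overlap (9.52, 8.81, 8.81 and 9.08 against 7.88, 8.22, 8.68 and 7.54), beside 1.33% of all genes higher without overlap and 0.989% lower. It was also the single member with an unadjusted p under 0.05, beside 2.17% of all genes higher and 1.81% lower. The difference was 0.97 ± 0.330 (SE; limma, unadjusted p = 0.0103), which did not survive adjustment over all genes (adjusted p = 1.00). Rpl23a (0.81) and Rps3a (0.49) followed on that side, and Rps16 (-1.07), Rpl27a (-0.40) and Rpl6 (-0.24) were on the other. Between eNampt and CRH the genes with the largest moderated t were Rps16 (1.01), Rplp0 (0.29) and Rpl4 (0.24) on the higher side and Rpl36 (-0.55), Rps3 (-0.46) and Rpl5 (-0.18) on the lower. Between eNampt and IL-6 they were Rps3 (0.51), Rpl4 (0.30) and Rpl26 (0.17) against Rpl27a (-0.43), Rpl28 (-0.16) and Rps6 (-0.10). The second probe set of Rps16 had the opposite sign in both pairs that include CRH. On CRH array 4 the 2 probe sets of Rps16 were at 3.37 and 7.17. When only arrays 3 and 4 of each group were used, the median for CRH against IL-6 was -0.13, and with arrays 1 and 2 alone it was 0.41. For eNampt against IL-6 these medians were -0.11 and 0.40. Both splits were chosen after seeing the data.

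By role, the 3 measured small subunit proteins around the decoding site and messenger channel (Rps3, Rps23 and Rps15) had a median of 0.75 after CRH, -0.03 with IL-6 and 0.33 with eNampt. Against control arrays 1 and 2 alone these were 0.16, -0.43 and -0.13. Rps23, which contacts the decoding centre, was at 9.65, 9.31, 8.22 and 9.14 in control and had the smallest difference of the 3 after CRH. Rps15, of the small subunit head, ranged from 3.73 to 6.39 over the 16 arrays (residual SD 0.93). The 3 measured proteins of head and platform (Rps14, Rpsa and Rps16) had medians of 0.36, 0.23 and 0.46, and of 0.11, 0.049 and 0.14 against control arrays 1 and 2. Rps6, the substrate of S6 kinase, was dim (group means from 2.41 to 2.52) and differed from control by 0.08, 0.10 and 0.01.

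In the large subunit, Rpl3 and Rpl10, both near the peptidyl transferase centre, were lower than the mean of the 4 controls after all 3 ligands, with medians of -0.21, -0.35 and -0.17, but this rested on control array 2. Rpl3 was at 7.14, 9.12, 8.17 and 6.75 in control and Rpl10 at 2.91, 5.80, 3.12 and 3.53. Without control array 2 both genes were higher than control after CRH, IL-6 and eNampt, Rpl3 at 0.40, 0.20 and 0.30 and Rpl10 at 0.27, 0.19 and 0.45. Of the stalk, which recruits the translation factors, Rplp2 was at 8.13, 8.49, 6.22 and 7.43 in control and 8.48, 8.32, 7.56 and 8.37 after CRH, while Rplp0 lay between 3.49 and 4.69 on all arrays. Of the 5S particle, which binds Mdm2 when assembly is disturbed, Rpl11 ranged from 6.74 on control array 3 to 8.33 on eNampt array 2 and Rpl5 was dim (1.06 to 1.59). The 6 measured genes of the exit tunnel and its rim (Rpl4, Rpl39, Rpl19, Rpl23a, Rpl26 and Rpl35) were higher in 6, 5 and 6 cases, with medians of 0.25, 0.13 and 0.31. Against control arrays 1 and 2 they were higher in 3, 1 and 3, with medians of -0.018, -0.13 and 0.030. Rpl23, Rpl13a and Rpl26, known in human cells for roles outside the ribosome with Mdm2 or in the interferon response, had medians of 0.17, 0.04 and 0.20, and of -0.015, -0.073 and 0.0088 against control arrays 1 and 2.

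The relation between the subunits overlapped between groups. The median of the large subunit genes minus that of the small, an index whose zero has no meaning across probes, was -0.42 ± 0.296 in control, -0.51 ± 0.143 after CRH, -0.27 ± 0.337 with IL-6 and -0.30 ± 0.296 with eNampt (SD, n = 4). On control arrays 1 and 2 alone it averaged -0.18, higher than the mean of each ligand group.

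Genes with and without the tract at the start were not tested against each other. Among bright genes with a promoter window, the 10 with a tract had medians of 0.33, 0.22 and 0.34 after CRH, IL-6 and eNampt and the 19 without had 0.39, 0.33 and 0.46. Against control arrays 1 and 2 these were -0.025, -0.17 and -0.084 with the tract and -0.099, -0.17 and -0.025 without it. On control array 3 the medians were -1.24 and -1.26. Rpl39 and Rpl22 (-2.50 on control array 3), which hold the tract at the start, were among the genes farthest below the other controls there. So were Rpl7a, Rpl36 and Rpl41, which do not hold it at that position. A tract lay at the start in 14 of the 40 genes but within 15 bases of it in 31. The genes counted as without it therefore include some with a nearby tract, Rpl7a among them.

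Within groups, 94.7% of the pairs of bright ribosomal protein genes correlated positively, beside 73.5% of the pairs of the 1865 other bright genes. Over the 12 ligand arrays these shares were 90.7% and 56.5%. Over the 16 arrays, after the group means were taken out, the median correlation between pairs of bright genes was 0.736 (561 pairs), and 0.553 over the 12 ligand arrays alone. Among the 1865 other bright genes, whose array medians were lower (5.15 to 6.52), the values were 0.249 and 0.083. These are descriptions over arrays that share a handling and a normalization. Rplp2 (r = 0.966), Rpl35a (0.965) and Rpl22 (0.950) had the highest correlation of their levels with the median of all 46 genes over the 16 arrays, and among the bright genes Rpl3 (0.054) and Rpl4 (0.253) had the lowest. Outside the family the 5 genes whose levels were most like that median were Cox7b (0.957), Eif2s2 (0.957), Ubl5 (0.953), Ndufb7 (0.952) and Ndufb8 (0.950), over 16 arrays.

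The spread between arrays of a group varied widely in the family. The median residual SD was 0.496 for the 34 bright genes and 0.691 for the other bright genes, whose levels were lower. Rpl13a (0.230), Rpl23 (0.249) and Rps14 (0.258) were the steadiest bright genes. Rpl13a, named in interferon-dependent translational control in human cells, was at 9.68, 9.91, 9.03 and 9.44 in control and from 9.20 to 9.79 on the ligand arrays. Rpl10 (1.10), Rps29 (1.08) and Rps16 (0.976) had the largest spread, and Rpl5 (0.180), Rpl26 (0.188) and Rps9 (0.199), all dim, the smallest.

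**Figure D5:**
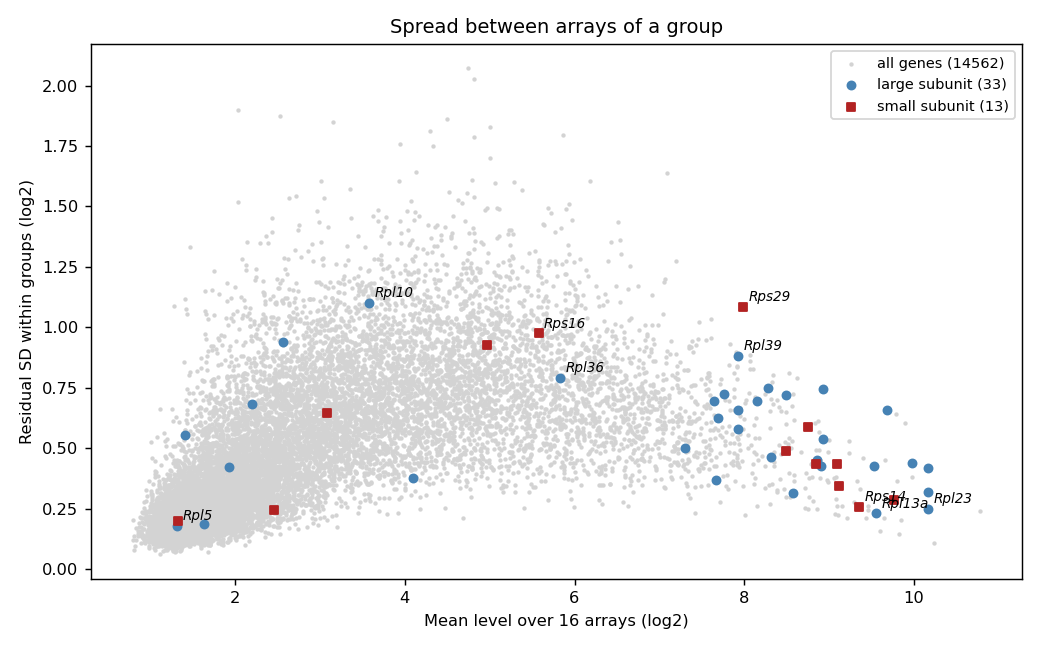
The mean log2 level over 16 arrays is set against the residual SD within groups for all genes (grey) and for the large (circles) and small subunit genes (squares). Rpl13a and Rps14 are steady at high level, with residual SDs of 0.230 and 0.258, and Rps29 and Rpl10 vary most, at 1.08 and 1.10.

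Of the other listed genes of translation, 0 passed the test in any comparison. At an unadjusted p under 0.05 against control there were 0, 1 and 1 elongation and TOP genes, 0, 1 and 1 initiation factors and 3, 3 and 5 assembly genes after CRH, IL-6 and eNampt, beside 6.32%, 5.53% and 7.55% of all genes. There were 0 growth signalling genes in each and 1, 0 and 3 housekeeping genes. Among the 1865 other bright genes, 263, 186 and 274 reached this threshold, a larger share than over all genes. Of 9 measured elongation factors and further TOP messages of 20 listed, 8, 7 and 8 were higher after CRH, IL-6 and eNampt (medians 0.19, 0.28 and 0.30), and without control arrays 3 and 4 the medians were -0.26, -0.23 and -0.21. Eif3h, a subunit of initiation factor 3, had the largest moderated t there (0.46, 0.77 and 0.68). Of 16 measured initiation factors of 23 listed, 13, 14 and 13 were higher (medians 0.32, 0.24 and 0.54, and -0.35, -0.42 and -0.14 without the 2 arrays). Eif4h, a partner of the helicase eIF4A, was at 0.52, 0.77 and 0.60 and at 0.62, 0.86 and 0.69 without them.

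Of 29 measured genes of ribosome assembly and RNA polymerase I of 40 listed, 23, 21 and 26 were higher, with medians of 0.36, 0.29 and 0.58, which became -0.14, -0.12 and 0.09. Polr1e, a subunit of RNA polymerase I, had differences of 1.47 ± 0.415 after CRH and 1.26 ± 0.415 after eNampt (SE), and 1.35 and 1.14 without control arrays 3 and 4. Of 15 genes of growth signalling of 19 listed, 10, 10 and 11 were higher (medians 0.16, 0.25 and 0.09, and -0.13, -0.03 and -0.18 without the 2 arrays), among them Larp1, which binds TOP messages, at 0.89 after eNampt (0.34 without them). The 2 measured ribosomal protein-like paralogs of 8 listed were Rpl3l (0.04, -0.20 and -0.20) and Rpl7l1 (0.14, 0.90 and 1.54, with an SE of 0.907). Of 13 other abundant housekeeping genes of 32 listed, 13, 11 and 13 were higher (medians 0.22, 0.13 and 0.47, and -0.10, -0.22 and -0.02 without the 2 arrays).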

How the data were processed

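Expression was measured on 16 Affymetrix arrays, 4 per group. The deposited table holds log2 expression per probe set for 36685 probe sets; RMA is the method that the submitters' processing notes name for these values. No source used here gives its version, the probe set level or a genome build. Groups came from the sample titles. Current rat symbols were looked up by Entrez identifier (14670 probe sets matched): 14830 probe sets had 1 symbol, 823 several and 21032 none, and the brightest single-symbol probe set per gene gave 14562 genes, with no filter on dim ones.

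Group means were estimated over the 16 arrays with limma 3.58.1 in R 4.3.3 (12 residual degrees of freedom, 2.28 prior). Tests were two-sided and moderated, p-values were adjusted by Benjamini-Hochberg over all genes, and the threshold was an adjusted p of 0.05. The fit was tested on simulated data. Named genes were, per ligand against control, the 6 each way with the largest moderated t, per pair of ligands 3 each way, the 3 with the largest and smallest residual SD, 2 per pathway list, and Rplp0, Rplp2, Rpsa and Rps6. Genes shown for their departure on control array 3 or 4, and Rpl13a, Rpl23, Rps14 among bright genes, were chosen after their values were seen. Members and lists were chosen with earlier results of these data known. Arrays with the same number in different groups were checked for pairing: of 24 such pairs, 8 correlated above 0.1 (r from -0.18 to 0.30). In 10 of the 24, the array correlated best with its own number. Arrays numbered 3 correlated at 0.30 between control and CRH, 0.30 between control and eNampt and 0.23 between CRH and eNampt. With IL-6 array 3 the values were -0.02 for control, -0.02 for CRH and 0.01 for eNampt. Whether equal numbers share a culture was not stated, and the main fit did not take them as pairs. Alternatives changed the normalization, arrays, variance model, dim-gene filter, probe set choice and replicate block.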

Additional observations from a re-analysis of the deposited data

Results flagged for a closer look

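Values of single arrays were compared with the other 3 of their group for 27 named ribosomal protein genes and 2 medians, 116 groups in all, and 13 stood out because the gap to the nearest other array took up most of the group's range. Chance flags about 1 in 20 groups. On control array 3, Rps29 was at 4.94 (others from 7.79 to 8.22), Rpsa at 7.91 (9.07 to 9.21) and Rps14 at 8.58 (9.25 to 9.36). On CRH array 3, Rps29 was at 6.36 (8.56 to 8.95) and Rpl39 at 7.00 (8.57 to 8.78). Rpl4 was at 7.93 on CRH array 2 (8.75 to 8.85) and Rpl7a at 8.11 on IL-6 array 2 (8.84 to 8.95). High single arrays were Rplp2 at 8.29 on IL-6 array 4, Rplp0 at 4.34 on IL-6 array 2, and Rpl10 at 4.15 on IL-6 array 4. Of the dim genes, Rpl27a was at 4.30 on control array 1 and 3.25 on IL-6 array 1, and Rpl13 at 3.06 on control array 2. Rps29 was the single gene with low arrays in 2 groups, and its control array 3 value was the farthest from its group.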

How the results depend on the processing

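No ribosomal protein gene was called in any of the 6 comparisons under any alternative run, and the lowest adjusted p of a member was 0.137 (IL-6 against control with replicates 3 and 4 only). The medians of the 46 genes were not as steady. For CRH, IL-6 and eNampt against control they ran from 0.05 to 0.46, from -0.07 to 0.29 and from 0.03 to 0.49 when 1 array was left out, the lowest in each case without control array 3. With replicates 1 and 2 only they were 0.13, -0.32 and 0.13, and with replicates 3 and 4 only 0.40, 0.55 and 0.48, splits chosen after seeing the data. Repeated quantile normalization gave 0.11, 0.04 and 0.14. With the replicate number as a block (replicate block), 0 members were called and the medians were the same by construction (0.29, 0.18 and 0.34), while the calls over all genes for CRH, IL-6 and eNampt went from 0, 1 and 2 to 0, 0 and 4. Not every array correlated best with its own number.

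Some named genes changed sign. Without control arrays 3 and 4, Rpl23a after CRH was at -0.063, Rps9 at 0.060 after CRH and 0.029 after IL-6, Rpl7a, Rpl21 and Rpl41 after IL-6 at -0.054, -0.18 and -0.17, and Rpl15 after eNampt at 0.24. With replicates 1 and 2 only, Rps16 after CRH was at 0.079, Rpl36, Rpl7a, Rpl21 and Rpl41 after IL-6 at -0.030, -0.23, -0.20 and -0.36, Rpl15 after eNampt at 0.69, and Rpl36 for eNampt against CRH at 0.017. With replicates 3 and 4 only, Rpl13 and Rplp0 after CRH were at 0.12 and 0.39, Rps3a and Rpl10 after IL-6 at 0.32 and 0.31, Rpl13 and Rpl3 after eNampt at 0.51 and 0.10, Rpl4 for eNampt against CRH at -0.077, and Rpl28 for eNampt against IL-6 at 0.045. With shared probe sets added, Rpl13 was at 0.63 after CRH and 0.75 after eNampt, and Rpl10 at 0.22 after CRH. With all probe sets averaged, Rps16 was at 0.79 after CRH and at 0.17 for CRH against IL-6, and Rpsa after eNampt at -0.15. Leaving out 1 array at a time, the ranges for CRH were -0.61 to 0.035 (Rpl13), -0.84 to 0.078 (Rps16), -0.37 to 0.025 (Rplp0), -0.73 to 0.27 (Rpl10) and -0.17 to 0.0035 (Rps9). For IL-6 they were -0.049 to 0.87 (Rpl41), -0.82 to 0.0052 (Rpl15), -0.78 to 0.19 (Rpl10) and -0.59 to 0.20 (Rpl3). For eNampt they were -0.40 to 0.27 (Rpl13), -0.51 to 0.32 (Rpl15), -0.49 to 0.30 (Rpl3) and -0.34 to 0.11 (Rpl28), and for eNampt against IL-6 -0.25 to 0.0013 (Rpl28) and -0.20 to 0.0063 (Rps6). The cause of these changes was not tested. Dim genes, near the level of most probe sets, limit what can be said of Rps6, Rpl5 and Rps9.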
